A study of Mus musculus with 8 samples.

Results

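The transcripts described here were those whose signal in the brainstem was lower in each of 4 Vglut2:Ndufs4cKO mice than in every one of 4 controls, the Vglut2:Ndufs4cCT mice. Members were chosen by their values in these same mice: a probe with 1 gene symbol, detected above background on all 4 control arrays (detection p under 0.05), with its highest Vglut2:Ndufs4cKO value below its lowest Vglut2:Ndufs4cCT value and a mean in Vglut2:Ndufs4cKO mice of at most 0.7 times the control mean. Of 25697 probes on the array, 23978 had 1 symbol and 12452 of these were detected on all control arrays. The selection held 72 of the 12452 probes (0.578%), which measured 71 of 9207 genes with an eligible probe and of 16593 named on the array, since Nkx2-9 entered with both of its probes. As the selection used the comparison of the genotypes, the differences of the members are given as a description, and no test of them is used. Gene lists are counted without their members.

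RNA from the whole brainstem of C57/BL6J mice was hybridized to Illumina MouseRef-8 v2 beadchips, which read biotin-labelled RNA with 1 or more probes for each gene. Both genotypes carried Slc17a6-Cre, a Cre recombinase driven by the promoter of the vesicular glutamate transporter Vglut2, so that recombination was directed to glutamatergic neurons. The Vglut2:Ndufs4cKO mice had 1 deleted and 1 floxed Ndufs4 allele, the Vglut2:Ndufs4cCT mice 1 floxed and 1 wild-type allele, and the mice were taken at the late stage of the disease (over P68 in the methods). In Vglut2:Ndufs4cKO mice the deleted allele was present in every cell, and cells outside the Vglut2 lineage kept the floxed one. There was 1 array per mouse, and the labels and methods do not give the sex of these mice.

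Ndufs4 encodes an accessory subunit of complex I, the NADH dehydrogenase at the entry of the mitochondrial respiratory chain, and its loss in mice leads to a disease of the brainstem that resembles Leigh syndrome. The brainstem holds neurons, myelinating oligodendrocytes, astrocytes, microglia and vessels, so a whole-tissue signal sums over these cells. A lower signal in such tissue can come from fewer cells of a type or from less RNA per cell, and these cannot be told apart here. The array positions on the beadchip also followed the genotype, with the controls on the first 4 positions and the Vglut2:Ndufs4cKO mice on the last 4, so position and genotype cannot be told apart.

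The dissected tissue was checked against marker genes. Of 10 brainstem markers (hindbrain Hox genes and genes of brainstem neurons) 9 were on the array and 8 of them were detected on all 8 arrays. Their summed signal was 19010 to 23143 in controls and 16613 to 19476 in Vglut2:Ndufs4cKO mice, with overlap (ratio of the means 0.875). The 1 forebrain marker on the array, Neurod6, was detected on none. The probe of the neuronal marker Snap25 was also detected on no array, so 1 undetected probe does not show that forebrain was absent. The summed signal of 3 choroid plexus markers on the array was 2025 to 9874 in controls and 2777 to 40226 in Vglut2:Ndufs4cKO mice, nearly all of it from Ttr, the transthyretin of that tissue. The summed signal of 6 cerebellar markers was 719 to 1175 in controls and 584 to 3135.5 in Vglut2:Ndufs4cKO mice, with Cbln3 and Fat2 detected on no array. The choroid plexus and cerebellar sums overlapped between the groups, and the highest ones were in Vglut2:Ndufs4cKO mice. The arrays had 14293 to 14723 detected probes in Vglut2:Ndufs4cCT mice and 14720 to 15042 in Vglut2:Ndufs4cKO mice, with background signals of 192 to 209.9 and 185 to 189.5 (scanner intensity). The summed signal of 3 microglial markers was 2028 to 2846 in controls and 3179.8 to 5483 in Vglut2:Ndufs4cKO mice, higher in each of the latter than in any control. Only Cx3cr1 was apart by itself, at 1311 to 1890 in controls and 2220 to 4359 in Vglut2:Ndufs4cKO mice. P2ry12 and Tmem119 overlapped between the groups, with ratios of the means of 1.08 and 1.31. The part of all these differences in the members' values was not tested.

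The promoters of 4 members are shown because these members stand for 4 roles among the 71 genes: Tnnt1, the slow skeletal muscle troponin T (signal ratio of Vglut2:Ndufs4cKO over control mice 0.548), Prr18, a proline-rich protein abundant in oligodendrocytes (ratio 0.684), Vegfa, the vascular endothelial growth factor (ratio 0.687), and Nsdhl, a sterol dehydrogenase of cholesterol synthesis (ratio 0.685). Each is the stretch of 250 bases before a RefSeq start site of the gene in mouse build GRCm38.p6, read 5′ to 3′ on the gene's strand, at chr7:4515976-4516225 (minus strand) for Tnnt1, chr17:8340156-8340405 (plus strand) for Prr18, chr17:46032378-46032627 (minus strand) for Vegfa and chrX:72918271-72918520 (plus strand) for Nsdhl. Capitals mark TATAAA in Tnnt1 and CCAAT, or its reverse complement ATTGG, in the other promoters. For each gene the first start site whose window held these letters was taken, so their presence was a condition of the choice.
Tnnt1: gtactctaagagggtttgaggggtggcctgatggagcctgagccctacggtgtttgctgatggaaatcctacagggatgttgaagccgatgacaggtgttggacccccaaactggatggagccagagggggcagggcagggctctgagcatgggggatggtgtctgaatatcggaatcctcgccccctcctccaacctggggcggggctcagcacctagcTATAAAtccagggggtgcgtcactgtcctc
Prr18: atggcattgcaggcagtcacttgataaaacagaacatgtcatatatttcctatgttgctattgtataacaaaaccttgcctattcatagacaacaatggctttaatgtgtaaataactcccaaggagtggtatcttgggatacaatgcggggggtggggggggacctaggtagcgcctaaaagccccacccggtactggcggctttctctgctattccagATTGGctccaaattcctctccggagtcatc
Vegfa: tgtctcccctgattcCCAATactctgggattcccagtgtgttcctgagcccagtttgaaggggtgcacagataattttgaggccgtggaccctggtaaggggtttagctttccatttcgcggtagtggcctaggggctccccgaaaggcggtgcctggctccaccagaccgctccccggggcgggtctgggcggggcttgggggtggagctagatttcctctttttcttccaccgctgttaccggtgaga
Nsdhl: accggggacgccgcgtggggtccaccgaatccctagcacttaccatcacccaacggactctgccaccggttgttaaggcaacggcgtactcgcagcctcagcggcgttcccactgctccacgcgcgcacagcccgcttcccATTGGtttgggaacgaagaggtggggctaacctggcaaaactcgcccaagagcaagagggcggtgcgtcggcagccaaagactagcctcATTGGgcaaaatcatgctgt
The TATAAA of Tnnt1 began 30 bases before the start site, and the CCAAT of Prr18 stood at the same distance, against 235 bases in Vegfa. In Nsdhl the first of 2 began 109 bases before the start. Windows of RefSeq (250 bases before to 50 after a start) were matched for 63 of the 71 genes, which had 91 windows, and searched on both strands. Of the 6 motifs searched, CCAAT was in 37.4% of the members' windows and in 37.4% of all 32851 windows, and TATAAA in 9.89% and 13.6%. The E-box CACGTG was in 7.69% and 7.15%, a heat shock element core GAANNTTC in 7.69% and 7.86%, the cyclic AMP response element TGACGTCA in 1.1% and 1.79%, and a sterol element core TCACNCCAC in 1.1% and 1.24%. The letters of these motifs do not contain one another. A match is only a match of letters in this window.

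Most members were dim probes. Their mean control signal (the authors' normalized intensity, a linear scale with the background subtracted) had a median of 185 and ran from 54.8 to 11699, against a median of 753 over the 12452 probes that could have been chosen. Of the members, 40 (55.6%) had a control mean under 200, a range that held 20.6% of the eligible probes. The share of eligible probes that met the selection was 2.22% below a control mean of 100, 1.20% from 100 to 200, 0.467% from 200 to 1000 and 0.204% above 1000. On 48 members the signal was still detected on all 4 Vglut2:Ndufs4cKO arrays, on 20 it was detected on 1 to 3 of them, and on 4 (Usp37, Slc25a22, Zc3hav1 and Dnaaf1) on none.

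**Figure D1:**
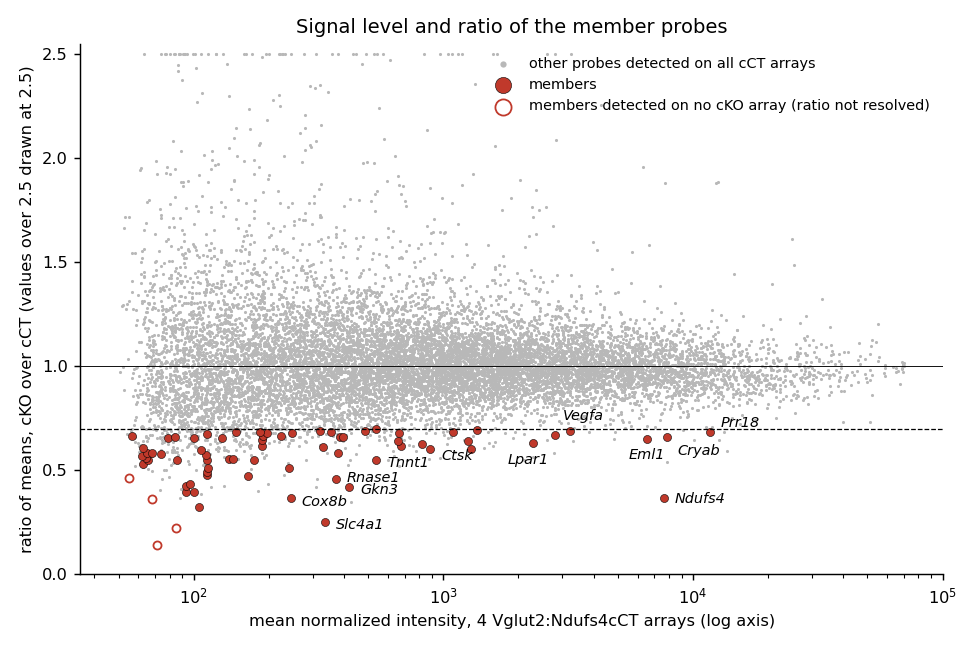
Ratio of the mean signals (Vglut2:Ndufs4cKO over Vglut2:Ndufs4cCT, 4 arrays each) against the mean control signal on a log axis, for the 72 members in red and the other eligible probes in grey. Open symbols are the 4 members detected on no Vglut2:Ndufs4cKO array, whose ratio is not resolved. Members lie below the dashed line at 0.7 by selection, with 40 of 72 at control means under 200, and Ndufs4 (ratio 0.366 at a control mean of 7649) stands apart from the other bright members.

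The ratio of the mean signals was 0.603 at the median of the members (0.615 with the 4 undetected ones at their bound, explained with Slc25a22) and 1.00 at the median of the eligible probes. Over the 68 members detected on 1 or more Vglut2:Ndufs4cKO arrays it ran from 0.251 to 0.696. The 32 members with a control mean of 200 or more had a median ratio of 0.646, and the 40 dimmer ones 0.556 (0.581 with the undetected ones at their bound). A ratio of at most 0.5 was found for 13 of the 68 detected members, of which only 5 had a control mean of 200 or more: Slc4a1, Cox8b, Ndufs4, Gkn3 and Rnase1. The space between the groups was small for most members: the lowest control value and the highest Vglut2:Ndufs4cKO value lay less than 1 bead standard error apart (the error of a probe from its beads, a median of 34, combined over both arrays) for 50 members and more than 2 for 7 members. Without a threshold on the ratio, 253 of the 12452 probes (2.03%) were lower without overlap. The mirror of the selection, with the genotypes exchanged and the threshold on the ratio kept, held 349 of 12596 probes (2.77%). Its counterpart is the selection itself, with 72 of 12452 probes (0.578%).

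**Figure D2:**
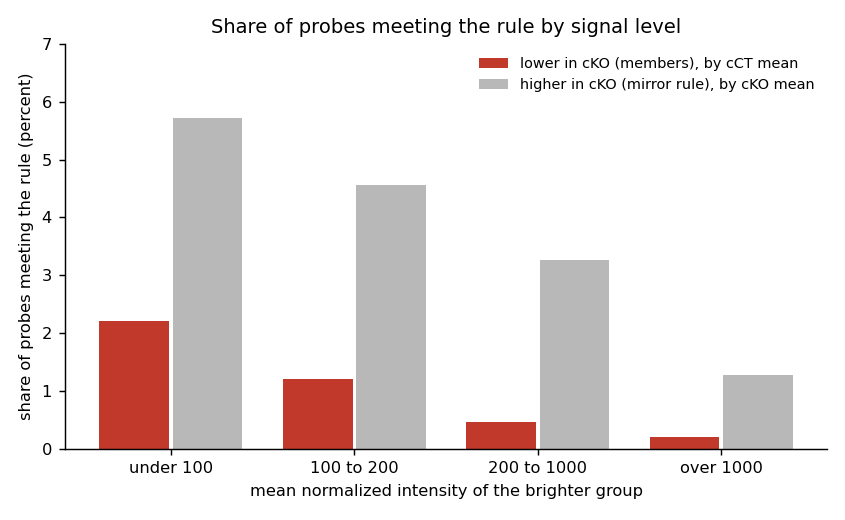
Share of probes (percent) that met the selection in 4 classes of signal, for probes lower in Vglut2:Ndufs4cKO mice by control mean (red) and for probes higher in them by Vglut2:Ndufs4cKO mean (grey). The share of lower probes was 2.22% in the dimmest class and 0.204% in the brightest, and the share of higher probes 5.72% and 1.28%.

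Ndufs4 itself was among the brightest members. Its member probe ILMN_1234521 read 10430.0, 5070.5, 7105 and 7991 in the controls, always listed in the order of the replicate numbers, against 2589, 3346, 2947 and 2320.2 in Vglut2:Ndufs4cKO mice. The control values spread widely and the Vglut2:Ndufs4cKO values were close together, with 7.08 bead standard errors between the groups, the widest space of any member. The group means, here and below given with the SD over the 4 mice of a group, were 7649 ± 2221 and 2801 ± 445 (SD, n = 4 each), a ratio of 0.366. The other 3 Ndufs4 probes overlapped between the groups: ILMN_2900025 read 7733, 4749.7, 5154 and 6844 in controls and 4934, 6046, 7029 and 4234 in Vglut2:Ndufs4cKO mice (ratio 0.909), and ILMN_2640944 and ILMN_2663694 had ratios of 0.865 and 0.904. On these 3 probes Vglut2:Ndufs4cKO replicates 3 and 4 were the highest and the lowest of their group, while on ILMN_1234521 replicate 2 was the highest and replicate 4 the lowest. Whether any of these probes lies in the deleted exon is not known from the sources used here. Ndufs4 was the only member among 37 listed complex I genes. Of the others, 32 were tested by limma (each gene by its brightest probe): 0 passed the test, 0 had an unadjusted p under 0.05, 18 had a log2 change below 0, and the median was -0.01. Over the 10356 tested genes that were not members, 259 were lower and 750 higher at an unadjusted p under 0.05, 46.3% had a log2 change below 0, and the median was 0.02.

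Several bright members were chaperones or their partners. Cryab, the small heat shock protein alpha B crystallin that is abundant in glia, read 6858, 6532, 8283 and 9747 in controls and 5239, 5741, 6131 and 3577 in Vglut2:Ndufs4cKO mice. Its lowest value was in Vglut2:Ndufs4cKO replicate 4 and its highest in control replicate 4, and the means were 7855 ± 1473 and 5172 ± 1124 (ratio 0.658). Ahsa1, which activates the ATPase of Hsp90, read 2795, 2413, 2645 and 3339.8 in controls against 2024, 1721, 1601 and 2128 in Vglut2:Ndufs4cKO mice, lowest in Vglut2:Ndufs4cKO replicate 3 and again highest in control replicate 4 (means 2798 ± 394 and 1869 ± 248, ratio 0.668). Nudc, a dynein regulator and Hsp90 cochaperone, read 1233, 1146, 1475 and 1295 in controls against 919, 693, 417 and 1073 in Vglut2:Ndufs4cKO mice, so that Vglut2:Ndufs4cKO replicate 4 came near the controls and replicate 3 lay far below (ratio 0.602). Its brighter probe had a ratio of 0.840, with overlap. Hspa12a, a distant Hsp70 relative, was dim: 86.3, 96.4, 122 and 67.0 in controls and 42.9, 65.8, -5.10 and 53.8 in Vglut2:Ndufs4cKO mice, the third value being below background (ratio 0.423). A chaperone list held Cryab but not the other members. Of its 20 other tested genes 0 passed limma's test in either direction, 2 were lower and 2 higher at an unadjusted p under 0.05, and 12 had a log2 change below 0 (median -0.13), against 46.3% below 0 over all tested genes that were not members. Hsph1, an Hsp110 chaperone, had a log2 change of -0.41 (standard error 0.12, adjusted p = 0.267, limma), and Hspb1, a small heat shock protein like Cryab, had 0.68 (standard error 0.26, adjusted p = 0.424, limma).

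**Figure D3:**
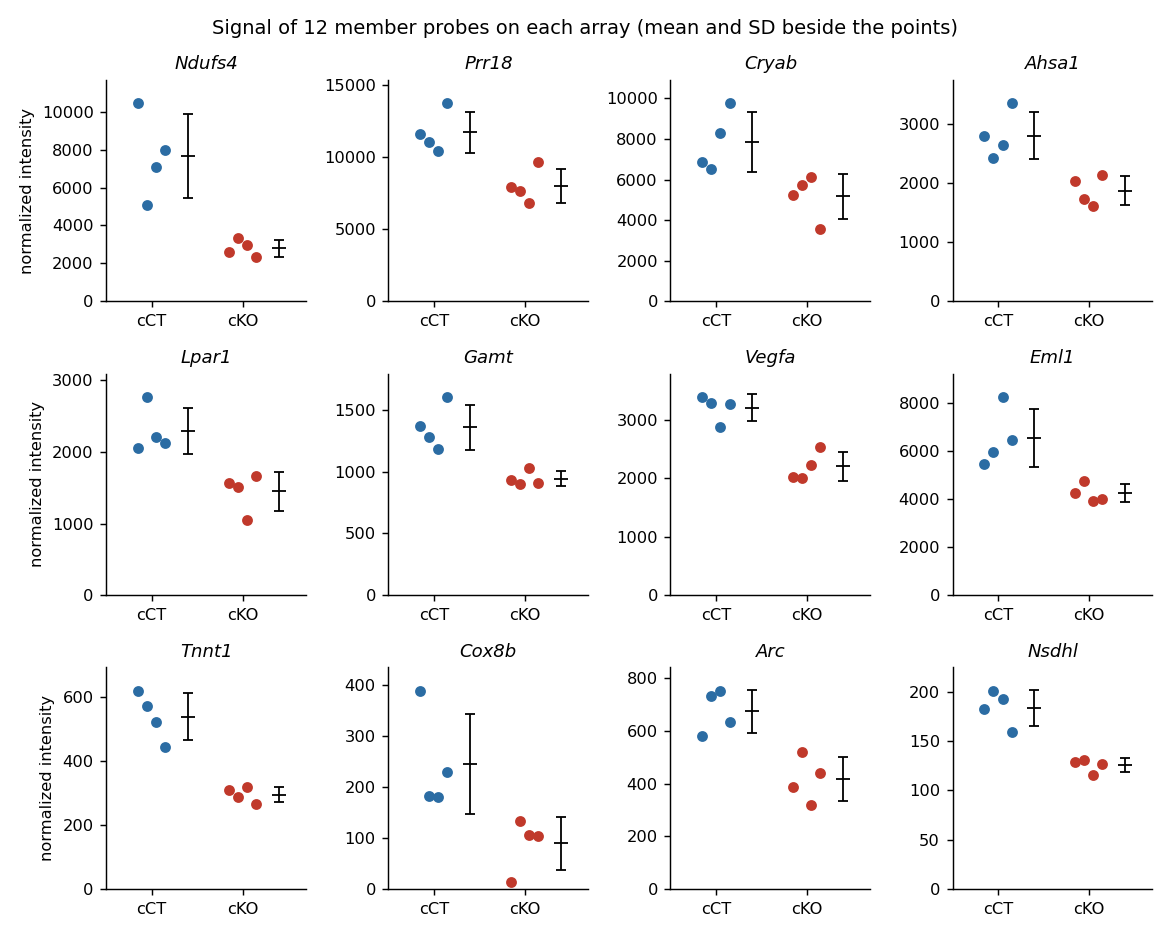
Normalized intensity of 12 member probes on each array, blue for the 4 Vglut2:Ndufs4cCT and red for the 4 Vglut2:Ndufs4cKO mice, replicates 1 to 4 from left to right, with the mean and SD beside the points and each axis starting at 0. By selection no red point reaches the lowest blue one, and the space between the groups is wide for Ndufs4 and Tnnt1 and narrow for Cryab.

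Genes of myelin and the oligodendrocyte lineage, with creatine and sterol synthesis, which are active in oligodendrocytes, counted 9 probes of 8 genes with a median ratio of 0.642. This grouping by role was made after the members had been seen. Prr18, the brightest of all members, read 11598, 11064, 10436 and 13700.1 in controls and 7902, 7632, 6833 and 9622 in Vglut2:Ndufs4cKO mice. Replicate 4 was the highest in each group, and the means were 11699.5 ± 1416 and 7997 ± 1174 (ratio 0.684). Lpar1, a receptor of lysophosphatidic acid that oligodendrocytes carry, read 2052, 2764, 2214 and 2125 in controls against 1563, 1512, 1048 and 1669 in Vglut2:Ndufs4cKO mice, lowest in Vglut2:Ndufs4cKO replicate 3 (means 2289 ± 324 and 1448 ± 275, ratio 0.633). Gamt, the enzyme that completes creatine synthesis, read 1371, 1278, 1185 and 1604 in controls against 931, 902, 1033 and 910.2 in Vglut2:Ndufs4cKO mice, with tight Vglut2:Ndufs4cKO values (means 1359 ± 179.8 and 944 ± 60.5, ratio 0.695). Nkx2-2, a transcription factor of oligodendrocyte precursors and serotonergic neurons, had group means of 658 ± 93.2 and 423 ± 65.1 (ratio 0.642). Both probes of its relative Nkx2-9 were members (ratios 0.555 and 0.617). Nkx2-9 was counted in this group only as that relative, and both of its ratios lie below the group's median. Padi2, which citrullinates myelin basic protein, and Slc45a3, a sugar transporter found in oligodendrocytes, had ratios of 0.677 and 0.612.

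The sterol member was Nsdhl, whose promoter sequence is printed with those of Tnnt1, Prr18 and Vegfa. The member probe read 182, 201, 192 and 159 in controls and 129, 131, 116 and 127 in Vglut2:Ndufs4cKO mice (means 184 ± 18.0 and 126 ± 6.84, ratio 0.685). Its other 3 probes had lower ratios of 0.620, 0.526 and 0.584 but overlapped, since Vglut2:Ndufs4cKO replicate 4 was high on each. ILMN_2594525, the brightest of them, read 371, 491, 427 and 378 in controls and 219.9, 111, 81.3 and 464 in Vglut2:Ndufs4cKO mice. On that probe 3 Vglut2:Ndufs4cKO mice lay far below the controls and the fourth among them, a pattern that the member probe did not show. Of 25 tested genes of cholesterol and fatty acid synthesis other than Nsdhl, 0 passed limma's test, 8 were lower and 1 was higher at an unadjusted p under 0.05, 22 had a log2 change below 0 and the median was -0.32, against 0.02 over all tested genes that were not members (46.3% of them below 0). Cyp51, the lanosterol demethylase that acts ahead of Nsdhl, had a log2 change of -0.79 (standard error 0.25, adjusted p = 0.313, limma).

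Of 23 tested genes of a list of oligodendrocytes and myelin, which held none of the members, 0 passed limma's test, 6 were lower and 0 higher at an unadjusted p under 0.05, 18 had a log2 change below 0 and the median was -0.21. Over all tested genes that were not members 259 of 10356 were lower and 750 higher at that level, and 46.3% had a change below 0. The lean was not particular to this list. In other lists without a member, 11 of 13 genes of fast and high-activity neurons (median -0.14) and 10 of 12 of GABA and glycine neurons (median -0.17) had a change below 0. Such lists also leaned the other way, with 2 of 10 for monoaminergic neurons and 3 of 10 for motor neurons. Ugt8a, the synthase of the myelin lipid galactosylceramide, had a log2 change of -0.85 (standard error 0.24, adjusted p = 0.228, limma), and Gpr17, a receptor of maturing precursors, had -0.83 (standard error 0.25, adjusted p = 0.269, limma). The summed signal of the defining oligodendrocyte markers on the array (Mog and Mobp) was 17495 to 31168 in controls and 14474 to 28778 in Vglut2:Ndufs4cKO mice, with overlap. The markers differed from each other, with a ratio of the means of 0.708 for Mog and 1.07 for Mobp.

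Genes known from muscle formed another group. Tnnt1, the slow skeletal muscle troponin T, read 618, 570.0, 522 and 443 in controls and 308, 287, 319 and 265 in Vglut2:Ndufs4cKO mice. It was lower in every Vglut2:Ndufs4cKO mouse by a wide margin for its level, 3.67 bead standard errors (means 538 ± 74.6 and 295 ± 24.2, ratio 0.548). Smtnl2, a smoothelin-like protein of contractile cells, read 143, 138, 173 and 124 in controls against 79.7, 78.6, 78.2 and 83.7 in Vglut2:Ndufs4cKO mice, with nearly equal values in the Vglut2:Ndufs4cKO mice (means 144 ± 20.6 and 80.1 ± 2.54, ratio 0.555). Cox8b, the heart and muscle isoform of a cytochrome c oxidase subunit, read 387, 182, 181 and 228 in controls against 14.5, 133, 105 and 104 in Vglut2:Ndufs4cKO mice. Control replicate 1 was far above the other controls and Vglut2:Ndufs4cKO replicate 1 far below its group (means 245 ± 97.6 and 89.1 ± 51.6, ratio 0.364). Perm1, a muscle partner of the PGC-1 coactivators, Smyd1, a muscle histone methyltransferase, and Sypl2, a membrane protein of muscle triads, had ratios of 0.666, 0.656 and 0.644. Slc25a22, a mitochondrial glutamate carrier, read 85.0, 69.6, 59.6 and 125 in controls against 11.7, -3.31, 32.8 and 33.9 in Vglut2:Ndufs4cKO mice and was detected on no Vglut2:Ndufs4cKO array, so its signal was at least 1.66-fold lower there (controls against the lowest detected signal or, if higher, the probe's own, on normexp-corrected log2 values). A list of muscle and contractile genes held the members Tnnt1 and Smtnl2. Of its 14 other tested genes 0 passed limma's test, 0 were lower and 2 higher at an unadjusted p under 0.05, and the median log2 change was 0.08. The defining markers of skeletal muscle differed: Ckm and Myh4 were detected on no array, and Acta1 on all 8. Acta1 had means of 141 in controls and 142 in Vglut2:Ndufs4cKO mice (ratio 1.01). The summed signal of 5 markers was 107 to 234 in controls and 143 to 245 in Vglut2:Ndufs4cKO mice.

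Secreted, vascular and blood genes had a median ratio of 0.474 over 8 probes. Vegfa, the growth factor that drives vessel growth and is induced by low oxygen, read 3386, 3290.2, 2877 and 3279 in controls and 2026, 2013, 2235 and 2539.9 in Vglut2:Ndufs4cKO mice. The controls lay within a narrow range and Vglut2:Ndufs4cKO replicate 4 came nearest to them (means 3208 ± 226 and 2204 ± 246, ratio 0.687). A dimmer Vegfa probe, ILMN_3121255, had a similar ratio of 0.665, and its groups overlapped only through Vglut2:Ndufs4cKO replicate 1 (456 against 455 in control replicate 1). Gkn3, a gastrokine that in mouse brain marks arterial endothelium, read 629.9, 282, 424 and 347 in controls against 276, 271, 98.0 and 60.3 in Vglut2:Ndufs4cKO mice, so that Vglut2:Ndufs4cKO replicates 1 and 2 stood just under the lowest control and replicates 3 and 4 well below (ratio 0.419). Rnase1, a secreted ribonuclease of endothelium, read 386, 249.5, 420.1 and 431 in controls against 214, 199.6, 114 and 153 in Vglut2:Ndufs4cKO mice (means 372 ± 83.6 and 170.4 ± 45.6, ratio 0.459). Ctsk, the collagen-degrading cathepsin K, had group means of 886 ± 182 and 535 ± 39.6 (ratio 0.603), and Clec3b, the plasminogen-binding tetranectin, 113 ± 19.6 and 55.1 ± 13.8 (ratio 0.490). Among 19 tested growth factor genes other than Vegfa, 0 passed limma's test, 3 were lower and 5 higher at an unadjusted p under 0.05, and 9 had a log2 change below 0. Igf1, a growth factor that microglia can secrete, had a log2 change of 0.91 (standard error 0.28, adjusted p = 0.286, limma).

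The blood genes were uneven. Slc4a1, the anion exchanger band 3 of red blood cells, read 164, 282, 775 and 126 in controls and 74.1, 105, 36.7 and 122 in Vglut2:Ndufs4cKO mice. Its low ratio of 0.251 rested on control replicate 3, and the lowest control was only 0.165 bead standard errors above the highest Vglut2:Ndufs4cKO value. Without control replicate 3 the ratio was 0.443. The 3 other tested genes of a red blood cell list had log2 changes below 0 (median -0.53), of which 0 passed limma's test and 0 had an unadjusted p under 0.05. The summed signal of the blood markers on the array was 34661 to 50165 in controls and 21814 to 50575 in Vglut2:Ndufs4cKO mice, with overlap. The part of blood in the signal of Slc4a1 was not tested. Camp, the granule peptide cathelicidin of neutrophils, read 109.8, 119, 80.6 and 61.7 in controls against 22.8, 43.3, 61.4 and 19.2 in Vglut2:Ndufs4cKO mice, and its groups were 0.0118 bead standard errors apart, the narrowest of any member (ratio 0.395). Gip, an incretin hormone of the gut, was near background (control mean 67.8, ratio 0.585).

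The 12 neuronal and synaptic members had a median ratio of 0.658. Arc, an immediate early gene whose RNA follows synaptic activity, read 580.1, 732, 751 and 633 in controls and 388, 518, 319 and 442 in Vglut2:Ndufs4cKO mice. The values spread in both groups, with Vglut2:Ndufs4cKO replicate 2 nearest to the controls (means 674 ± 81.2 and 417 ± 84.2, ratio 0.618). Of 20 tested genes of the immediate early list other than Arc, 0 passed limma's test, 1 was lower and 3 were higher at an unadjusted p under 0.05, 7 had a log2 change below 0, and Junb, a transcription factor of the list, had a log2 change of 0.62 (standard error 0.19, adjusted p = 0.287, limma). Pick1, a scaffold that traffics AMPA receptors, Fgf12, an intracellular partner of sodium channels, and Gng8, a G protein gamma subunit, had ratios of 0.690, 0.661 and 0.583. Entpd3, an ectonucleotidase of sensory neurons, and Mapk8ip3, a kinesin adaptor of axonal transport, had 0.551 and 0.548. Shtn1, which couples actin to adhesion in growing axons, read 485, 488, 488 and 482 in the controls, the tightest control values of all members relative to their mean, and 391, 268, 272 and 412 in Vglut2:Ndufs4cKO mice (ratio 0.691). Islr2, an axon membrane protein, and Ebf3, a transcription factor of differentiating neurons, had ratios of 0.672 and 0.685. The imprinted genes Mkrn3 and Mest had 0.679 and 0.655, and the organellar sodium/proton exchanger Slc9a7 had 0.656.

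Cytoskeletal and ciliary genes counted 7 members. Eml1, a microtubule-binding protein needed for the placement of cortical progenitors, read 5479, 5986, 8255 and 6457 in controls and 4267, 4765, 3941 and 4018 in Vglut2:Ndufs4cKO mice (means 6544 ± 1208 and 4248 ± 372, ratio 0.649), with 3.14 bead standard errors between the groups. Insc, an adaptor that orients the mitotic spindle, had group means of 1097 ± 141 and 748 ± 104 (ratio 0.681). The other 5 had control means between 54.8 and 241. Dnaaf1, which assembles the dynein arms of motile cilia, read 46.0, 53.9, 60.9 and 58.3 in controls against 31.8, 34.3, 20.9 and 14.2 in Vglut2:Ndufs4cKO mice, and with no detection in Vglut2:Ndufs4cKO mice the bound was at least 1.21-fold lower. Ulk4, a pseudokinase linked to cilia, read 156, 93.8, 198 and 213 in controls against 62.9, 89.7, 65.1 and 92.9 in Vglut2:Ndufs4cKO mice (ratio 0.470), with control replicate 2 only just above the Vglut2:Ndufs4cKO values. Anks3, an ankyrin protein of cilia, read 118, 81.8, 77.2 and 109 in controls against 66.7, 17.7, 23.5 and 59.5 in Vglut2:Ndufs4cKO mice (ratio 0.433). Bfsp2, a filament protein of the lens, and Krtap5-5, a hair keratin-associated protein, had ratios of 0.509 and 0.568.

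The signalling group held 11 genes with a median control mean of 112. Usp37, a deubiquitinase of the cell cycle, read 49.0, 84.0, 48.5 and 104 in controls and 7.37, -5.21, 1.87 and 35.4 in Vglut2:Ndufs4cKO mice. As the probe was detected on none of the latter arrays, only a bound holds, at least 1.43-fold lower. The values in Vglut2:Ndufs4cKO mice lay on both sides of 0. Ube2f, a conjugating enzyme of the NEDD8 pathway, and Peli1, a ubiquitin ligase of Toll-like receptor signalling, were the brightest of the group, with control means of 666 and 397 and ratios of 0.677 and 0.661. The remaining ones were Map3k7, the kinase TAK1 (0.572), Sh3rf3, a scaffold with a RING domain (0.664), Chfr, a mitotic checkpoint ligase (0.548), the endosomal Rab20 (0.579), Mon1a, an activator of Rab7 (0.596), the Golgi protein Sft2d2 (0.557), Arhgef25 (0.548), and Mob3b, a kinase activator whose control replicate 2 was far above the other controls (0.478).

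In the nucleus, H2bc6 was the brightest member, with group means of 823 ± 175 and 514 ± 62.6 (ratio 0.624), but histone H2B genes are nearly identical and the probe may read several of them. Zc3hav1, an antiviral protein that binds CpG-rich RNA, read 78.4, 57.6, 54.0 and 81.0 in controls against 28.7, 16.9, 22.3 and 30.3 in Vglut2:Ndufs4cKO mice, and with no detection in Vglut2:Ndufs4cKO mice the bound was at least 1.41-fold lower. Rad51c, of homologous recombination, read 80.9, 137, 83.1 and 98.1 in controls against 10.7, 59.7, 9.78 and 77.0 in Vglut2:Ndufs4cKO mice, with Vglut2:Ndufs4cKO replicates 1 and 3 near background and replicates 2 and 4 near the controls (ratio 0.394). Sf3a2, a splicing factor, and Thap1, a transcription factor, had ratios of 0.583 and 0.608. Of the 8 remaining members Fam78a, a gene without a well known role, was bright, with 1183, 1263, 1414 and 1149 in controls and 843, 793, 562 and 1012 in Vglut2:Ndufs4cKO mice (ratio 0.641). Lyplal1, a lysophospholipase-like enzyme, read 65.1, 87.5, 181 and 85.2 in controls against 31.8, 29.0, 21.7 and 53.6 in Vglut2:Ndufs4cKO mice (ratio 0.325). Ggct, of glutathione turnover, had 0.696, Cpox, of heme synthesis, 0.661, Ciao3, of iron-sulfur protein assembly, 0.685, Fn3krp, of protein deglycation, 0.531, Cuta 0.511 and the odorant receptor Olfr503 0.666.

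The members did not share 1 order of the mice within a group. Vglut2:Ndufs4cKO replicate 3 was the lowest of its group in 30 of the 72 members, against 32.5% of the eligible probes, and Vglut2:Ndufs4cKO replicate 4 was the highest in 28, against 38.0%. Control replicate 1 was the lowest control in 20 members, against 43.1% of the eligible probes, and the other controls were each the lowest in 16 to 19. The median of the members' signal over their control mean was 0.641, 0.594, 0.552 and 0.615 in the Vglut2:Ndufs4cKO mice, in replicate order. The coefficient of variation among controls had a median of 16.8% over the members and 14.8% over the eligible probes. The size of the selection changed with the mouse left out. Without Vglut2:Ndufs4cKO replicate 4 the same criteria held for 565 probes, of which 68 were members. Without control replicate 1 they held for 165, which included all 72. Groups of fewer mice are more easily apart, so some rise follows from the criteria. A member's groups stay apart whichever mouse is left out, so only its ratio can remove it.

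**Figure D4:**
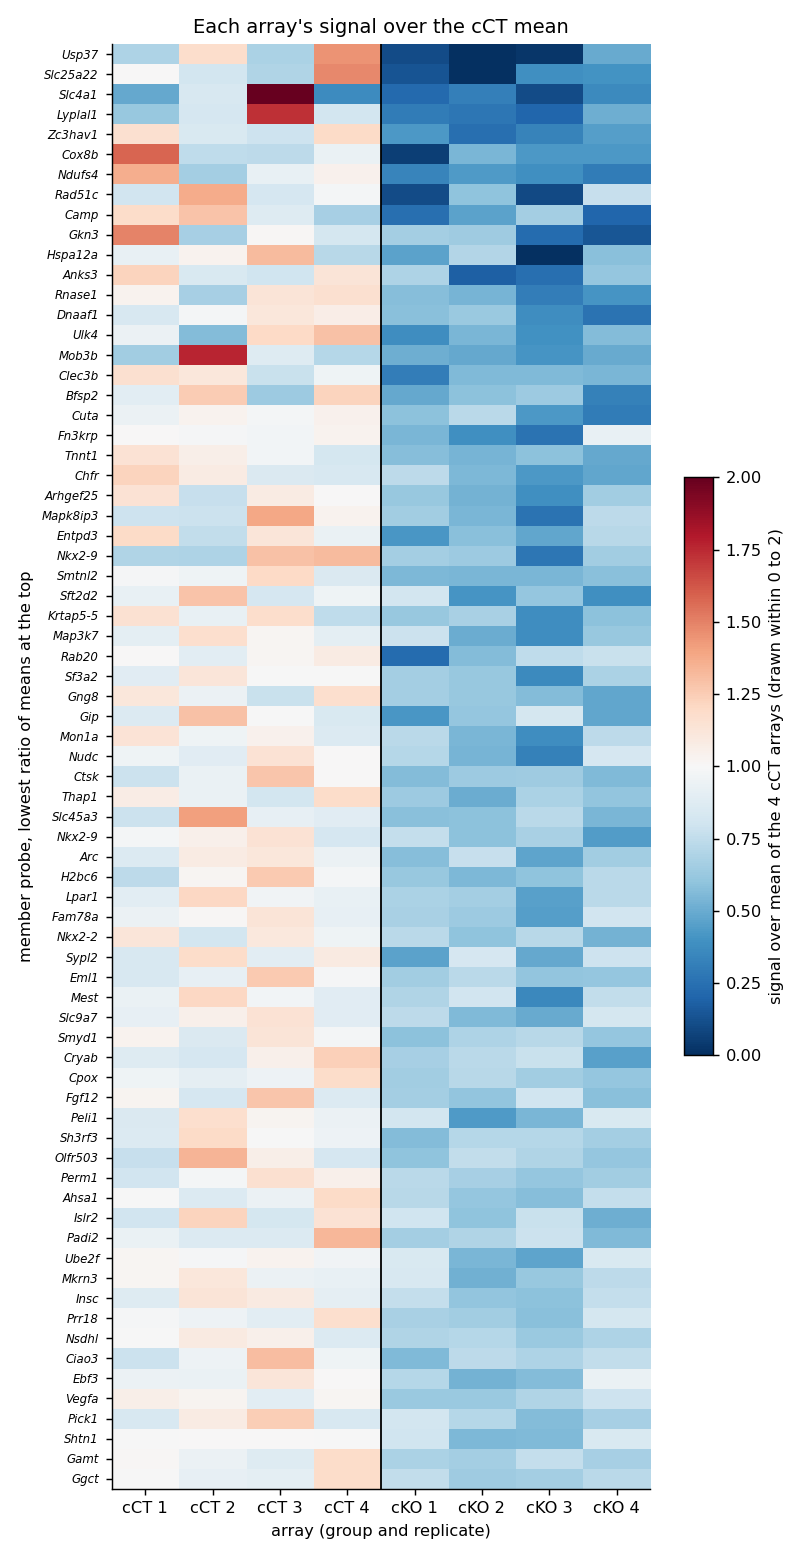
Signal of the 72 member probes on each array divided by the mean of the 4 control arrays (colour, drawn within 0 to 2), with the lowest ratio of means at the top. The Vglut2:Ndufs4cKO columns are below 1 throughout by selection, Vglut2:Ndufs4cKO replicate 3 is the lowest of its group in 30 rows, and single high controls stand out for Slc4a1, Mob3b, Lyplal1 and Cox8b.

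Further probes of the same genes gave a second reading of the transcripts in the same mice. On the array, 26 member genes had 49 further probes, of which 33 (from 20 genes) were detected on all control arrays. Of these 33, 26 had a ratio below 1 and 6 a ratio of at most 0.7, but in 0 of them were the groups without overlap, in either direction. Their median ratio was 0.909, against 0.629 for the member probes of the same genes. The member probes were selected for a low ratio and the further probes were not, so the medians are not tested against each other. Probes can also read different transcript forms, which the files do not give.

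**Figure D5:**
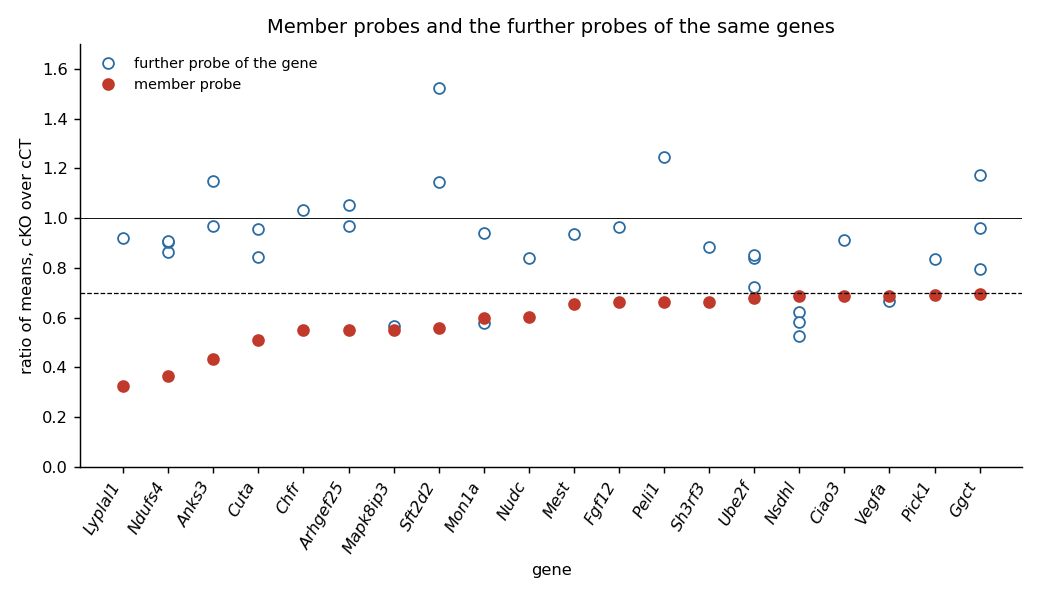
Ratio of the mean signals (Vglut2:Ndufs4cKO over Vglut2:Ndufs4cCT) of the member probe (red) and of the further probes detected on all control arrays (open blue) for 20 member genes. The further probes had a median ratio of 0.909 and lay at or below the dashed line at 0.7 for Nsdhl, Vegfa, Mon1a and Mapk8ip3.

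The genes differed in how far their probes went together. For Nsdhl all 4 probes were at or below a ratio of 0.7, and for Vegfa both detected probes. Ube2f had further ratios of 0.721, 0.841 and 0.853, and Mon1a 0.578 and 0.941. For Chfr the member probe was dim (control mean 65.6), and a probe with a control mean of 2547 had a ratio of 1.03. The further probes had ratios of 0.969 and 1.15 for Anks3, 1.05 and 0.967 for Arhgef25, 0.955 and 0.845 for Cuta, 0.919 for Lyplal1 and 0.962 for Fgf12. The further probes of Ggct had 0.962, 0.793 and 1.17. A brighter Pick1 probe (control mean 3442) had 0.837, with overlap. Further probes detected on all control arrays had 0.938 for Mest, 0.883 for Sh3rf3, 0.911 for Ciao3 and 0.566 for Mapk8ip3. Sft2d2 and Peli1 were higher in Vglut2:Ndufs4cKO mice on their further probes, with ratios of 1.14 and 1.52 for Sft2d2 and 1.25 for Peli1, all with overlap.

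At the threshold of 0.7 the members just inside were Shtn1 (0.691), Gamt (0.695) and Ggct (0.696), and the probes just outside that met the other criteria were Piga (0.702), which starts the synthesis of lipid membrane anchors, Gtf3c6 (0.702), a subunit of a polymerase III factor, and Mvd (0.702), which like Nsdhl belongs to cholesterol synthesis. In the fit of limma across 15225 probes, 5 probes (0.0328%) were lower at an adjusted p under 0.05, 460 were lower at an unadjusted p under 0.05, and 102 were higher at the adjusted threshold. Of the 5 lower probes 4 were members (Ndufs4, Tnnt1, Smtnl2 and Zc3hav1), and the other one, ILMN_2597606, had no gene symbol. Nothing is read from this overlap, since the fit used the same comparison as the selection. Along the genome (gene order of GRCm38.p6), Entpd3 and Ulk4 were separated by 2 protein-coding genes and Hspa12a and Shtn1 by 1. Only 1 other member lay on the chromosome of Ndufs4, with 622 protein-coding genes between them.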

How the data were processed

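The authors hybridized brainstem RNA of 4 Vglut2:Ndufs4cKO and 4 Vglut2:Ndufs4cCT mice to the 8 arrays of 1 beadchip and deposited the unnormalized signal intensity, the detection p-value, the bead number and the bead standard error of 25697 probes. They also deposited a table of normalized intensity, made in GenomeStudio (version not stated) by subtracting the background and scaling arrays to a common average. There each array has the same mean and some values are below 0. All columns mapped to a sample by their labels, with 0 unmapped.

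Members were selected on the authors' normalized intensity and the deposited detection p-value, both as deposited, and a ratio is that of the group means on this linear scale. A value below 0 lies under the array's background. For probes detected on no Vglut2:Ndufs4cKO array, a bound replaces the fold. Gene symbols came from the platform annotation, and 1719 probes without one were left out of the selection.

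For genes that are not members, limma 3.58.1 in R 4.3.3 was fitted to probes that 3 or more of the 8 arrays detected (p under 0.05), on log2 of the normexp-corrected, mean-scaled intensity plus 16. Tests were two-sided, with Benjamini-Hochberg adjustment over 15225 probes and a threshold of 0.05, and the fit was checked on simulated data. The error model named in the methods was not repeated. A list gene takes its brightest tested probe, and members are left out of the counts. No set test was run.

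The members and the 33 gene lists were chosen with earlier results of these data known, and the roles were assigned after the members had been seen. Values per array are given for the Ndufs4 probes ILMN_1234521 and ILMN_2900025, the 15 lowest ratios, the 10 highest control means and the members in a list. The 3 members and 3 probes nearest the threshold are named with their ratio. The other members are also named with their ratio. Genes named from a list are among its 4 genes of smallest p, but not all of these are named. Lists without a member are given only beside the myelin members. The alternatives were other normalizations, detection thresholds, ratios, offsets, filters, weights per array, a replicate block and each array left out. Bead numbers limit the precision on an array, and 4 arrays per group limit that between mice.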

Additional observations from a re-analysis of the deposited data

Results flagged for a closer look

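Of the 144 groups of 4 values (72 members, 2 genotypes), 3 held a mouse whose gap to the nearest of the others exceeded Dixon's 95% critical share of the group's range. Chance alone flags about 1 group in 20. Clec3b read 34.4 in Vglut2:Ndufs4cKO replicate 1, against 60.8 to 62.7 in the other 3 mice of the group. The Nkx2-9 probe ILMN_2689425 read 37.9 in Vglut2:Ndufs4cKO replicate 3, against 87.3 to 90.6 in the others. Padi2 read 261 in Vglut2:Ndufs4cCT replicate 4, against 169 to 183 in the others. In Clec3b and Nkx2-9 the separate value was the lowest of the Vglut2:Ndufs4cKO mice, and in Padi2 the highest of the controls.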

How the results depend on the processing

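The number of probes that met the selection was 71 on normexp-corrected, mean-scaled intensities (71 of them members) and 107 after quantile normalization (58 members), but 15 without background correction (15 members) and 111 after scaling to the 75th percentile (70 members). It was 35 at a ratio of at most 0.6 and 147 at 0.8, 49 with a detection p under 0.01, 48 with detection on all 8 arrays and 76 with unnamed probes. Leaving out each mouse in turn, which makes groups more easily apart and so raises the number, gave 87 to 565, the highest without Vglut2:Ndufs4cKO replicate 4. It was 165 without control replicate 1 and 127 without control replicate 2. The median ratio of the members was 0.787 without background correction and between 0.588 and 0.616 under the other normalizations, and 0.593 to 0.626 with each mouse left out. Of 360 ratios of 30 named member probes under 12 alternatives, 344 moved by less than the spread between replicates (the SDs of both groups combined). The other 16 moved more, and 0 passed 1. Most alternatives left out 1 mouse, which can hardly move a mean of 4 by that much, so the 344 do not show stability. All 16 came without background correction, where they were 16 of the 30 ratios. Without that correction Slc4a1 had 0.516, Cox8b 0.632 and Ndufs4 0.383. Slc4a1 had 0.443 without control replicate 3.

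Members meeting the selection under all 4 other normalizations numbered 14: Slc4a1, Cox8b, Ndufs4, Rnase1, Tnnt1, Nudc, Ctsk, Arc, Lpar1, Fam78a, Eml1, Cryab, Ahsa1 and Prr18.

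In limma's fit 5 probes, 4 of them members, were lower. With an offset of 50 these were 3 and 2, without background correction 4 and 2, and with array weights 27 and 16. With the replicate number as a block 0 and 0 were lower (339 and 70 at an unadjusted p under 0.05). Deviations of same-numbered mice correlated at -0.191, -0.261, -0.238 and -0.200. Mice with different numbers were not compared in this way, so these values cannot show whether the replicate numbers pair the samples. With each mouse left out, 0 to 123 probes and 0 to 11 members were lower, the highest without Vglut2:Ndufs4cKO replicate 4. They were 0 without Vglut2:Ndufs4cCT replicate 3, Vglut2:Ndufs4cKO replicate 1 or Vglut2:Ndufs4cKO replicate 3 (348, 411 and 286 probes lower at an unadjusted p under 0.05) and 1 or 2 without each of the remaining 4 mice. The cause of these shifts was not tested. Signals close to background limit 40 of the 72 members, whose control means were under 200.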
